A study of Homo sapiens with 4 samples.

Results

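The genes described here are 33 protein-coding genes of cholesterol synthesis and sterol regulation: 20 enzymes that lead from acetyl-CoA units to cholesterol, 7 genes of the SREBP control machinery and 6 genes of sterol traffic, export and storage. The names were selected on their fold change between PRMT5 KD and control in these same libraries, as a pathway whose genes were seen to be lower. Their fold changes are therefore a description of the choice, with no test, and support nothing further. All 33 were found among the 29655 gene names in the tables and among the 11906 protein-coding genes that passed the filter on low values, so no member was lost to it. Some steps of the pathway are not covered by the 33 names.

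RNA-seq of total RNA was available for 4 libraries of the established cell line UMSCC74B, derived from a squamous carcinoma of the head and neck. The 2 control libraries came from cells given a control shRNA, and the 2 libraries labelled PRMT5 KD from cells given an shRNA against PRMT5, an arginine methyltransferase. Cells were collected 72 h after delivery. The labels describe plasmid transfection, whereas the methods describe lentiviral particles. Neither states whether the replicates were separate cultures, so the spread between libraries may be technical, and all differences are between these groups of libraries in 1 cell line.

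Cholesterol is built from acetyl-CoA through mevalonate, isoprenoid pyrophosphates, squalene and lanosterol. The transcription factors SREBP1 and SREBP2, encoded by SREBF1 and SREBF2, are held in the endoplasmic reticulum by SCAP and the INSIG proteins when sterols are plentiful. When sterols are scarce they are carried to the Golgi and cut by the proteases encoded by MBTPS1 and MBTPS2, and the released factors bind sterol elements in front of most synthesis genes. Sterol excess is handled by a separate receptor system, LXR, which raises the exporters ABCA1 and ABCG1 and the ubiquitin ligase MYLIP.

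Promoters are shown for 5 members that cover the range of behaviour described below: the factor gene SREBF2, the enzymes TM7SF2, MVD and MSMO1, which had large differences, and the enzyme PMVK, which had almost none. Each line gives the 250 bases before a RefSeq transcript start (GRCh38.p14), 5′ to 3′ on the gene's strand, with the motifs searched for in capitals. The windows are chr22:41832855-41833104 on the plus strand for SREBF2, chr11:65111622-65111871 on the plus strand for TM7SF2, chr16:88663092-88663341 on the minus strand for MVD, chr4:165327419-165327668 on the plus strand for MSMO1 and chr1:154936720-154936969 on the minus strand for PMVK.
SREBF2: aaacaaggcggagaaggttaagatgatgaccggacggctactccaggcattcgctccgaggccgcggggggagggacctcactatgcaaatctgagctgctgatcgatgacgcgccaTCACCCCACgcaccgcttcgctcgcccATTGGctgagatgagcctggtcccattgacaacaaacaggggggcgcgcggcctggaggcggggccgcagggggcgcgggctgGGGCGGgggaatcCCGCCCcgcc
TM7SF2: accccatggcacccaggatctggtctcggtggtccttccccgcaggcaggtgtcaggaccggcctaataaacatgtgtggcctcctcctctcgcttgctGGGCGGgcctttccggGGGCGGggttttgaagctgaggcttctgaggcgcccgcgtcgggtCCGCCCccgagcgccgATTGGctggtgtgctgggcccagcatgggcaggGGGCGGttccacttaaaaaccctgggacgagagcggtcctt
MVD: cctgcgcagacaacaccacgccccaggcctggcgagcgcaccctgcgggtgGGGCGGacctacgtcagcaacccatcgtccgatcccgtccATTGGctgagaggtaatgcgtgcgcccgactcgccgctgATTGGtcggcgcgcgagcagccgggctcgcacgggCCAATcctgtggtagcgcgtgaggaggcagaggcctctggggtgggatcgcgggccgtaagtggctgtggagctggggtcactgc
MSMO1: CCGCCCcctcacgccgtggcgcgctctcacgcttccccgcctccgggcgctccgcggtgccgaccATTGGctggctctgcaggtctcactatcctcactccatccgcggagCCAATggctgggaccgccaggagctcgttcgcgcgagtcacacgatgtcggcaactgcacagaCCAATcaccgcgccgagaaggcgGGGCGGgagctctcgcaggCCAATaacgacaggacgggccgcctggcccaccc
PMVK: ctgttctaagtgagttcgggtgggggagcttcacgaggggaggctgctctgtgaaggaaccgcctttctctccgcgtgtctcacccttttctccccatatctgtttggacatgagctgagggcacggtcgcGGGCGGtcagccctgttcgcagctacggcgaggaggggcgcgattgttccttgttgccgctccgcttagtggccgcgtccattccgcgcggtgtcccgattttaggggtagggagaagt

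The motifs were the core of the sterol element (TCACNCCAC, N being any base), the CCAAT box bound by NF-Y, the GC box GGGCGG bound by Sp1, and the E-box CACGTG. Each was searched on both strands, and none contains another. The window ran from 250 bases before the start to 50 bases after it, 300 bases in all. RefSeq windows were matched for 29 of the 33 members, and those of ACAT2, FDFT1, SQLE and ABCG1 were not. The sterol element core was present in 1 member, SREBF2, where it lay 133 bases before the start, which is 3.45% of members against 1.43% of the 9772 tested genes with a window. The CCAAT box was in 19 members (65.5%) against 44.03% of tested genes and 39.7% of all 27305 genes with a window. The GC box was in 25 members (86.2%) against 77.1% and 48.3%. Both together were in 18 members (62.1%) against 34.2% and 19.2%, and the E-box was in 5 members (17.2%) against 12.7% and 8.78%. The CCAAT box was missing from the windows of PMVK, which was not called, and also from those of 9 members called lower, among them SREBF1, ABCA1, CYP51A1 and NPC1, and it was present in that of SOAT1, which was not called. These are matches of letters, not bound sites. Only exact matches within the window were counted, so variant or more distant elements of the members were not looked for.

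The libraries held 52185289 to 65964558 estimated counts, with a share of 71.6 to 81.5% for protein-coding genes. The ribosomal RNA share was 15.3 and 14.2% in control and 26.2 and 18.02% in the libraries labelled PRMT5 KD. Levels are given below in CPM, protein-coding counts scaled to library size with TMM factors. PRMT5 itself did not follow its label. It stood at 94.2 and 84.2 CPM in control and at 132 and 149 CPM where knockdown was labelled, a log2 fold change of 0.66 ± 0.12 (SE; edgeR quasi-likelihood test, Benjamini-Hochberg adjusted p = 0.00548), and the call was lost without control replicate 2 (log2 fold change 0.58). The study examined the silencing at the protein level by immunoblot, which these data do not measure. Directions below follow the labels. Markers of the labelled cell type were also largely missing: KRT5, KRT14 and KRT6A, the keratins that define squamous cells, had 0 or 1 count in each control library, and only TP63 and DSG3 of the 8 squamous markers passed the filter.

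Markers of other cell types moved with the groups. All 6 fibroblast markers were measured and called lower, and their summed level was 628 and 726 CPM in control against 87.6 and 97.1 CPM in the other group. TP63, DSG3, CD14 and PECAM1, markers of the other types that were tested, were also called lower. A marker that passed the filter only through the control libraries could hardly come out other than lower. PECAM1, at 0.294 and 0.146 CPM with the knockdown label, is such a case. Which other markers passed in this way is not given here. Over all tested genes 24.3% were called lower. The 8 squamous markers summed to 49.8 and 43.8 CPM against 22.7 and 31.5 CPM, of which DSG3 made up 43.01 and 36.4 CPM in control. The keratins KRT17 and KRT14 ran the other way, at low levels: KRT17 had 5 and 6 counts in control against 53 and 71, and KRT14 had 0 in both against 11 and 21.8. The 3 leukocyte markers summed to 34.7 and 40.04 CPM against 1.07 and 1.90 CPM, nearly all of it CD14, whereas CD3E had no count and PTPRC had at most 5 counts in any library. The 3 endothelial markers summed to 10.1 and 14.02 CPM against 1.01 and 0.460 CPM, with CDH5 at 0 in both libraries labelled PRMT5 KD. The part of these cell type markers and of the ribosomal RNA share in the results below was not tested. In bulk RNA, fewer cells of a type and less RNA per cell cannot be told apart.

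A gene was called when the adjusted p of the edgeR quasi-likelihood fit over all tested genes was under 0.05 and the absolute log2 fold change was at least 0.5. By this rule 45.5% of all tested genes were called, 24.3% lower and 21.2% higher in the libraries labelled PRMT5 KD. Of the 33 sterol genes, 31 were called lower and 0 higher, which the way they were chosen fixes in large part. With a log2 fold change of -1 or less, 22 members were called lower, against 12.8% of all tested genes. Both libraries labelled PRMT5 KD lay below both control libraries for 32 members, against 40.6% of all tested genes. The median log2 fold change of the members was -1.21, beside -0.01 over all tested genes, whose quartiles were -0.53 and 0.45. Scaling by total counts alone shifted the median of all tested genes to 0.17 and that of the members to -1.04, and moved the share of higher calls among all calls from 46.6% to 61.5%. Without control replicate 2, the calls over all tested genes came down from 2895 lower and 2522 higher to 1758 and 1349. Member genes and all tested genes had similar median exon lengths, 5080 and 5381.5 bases.

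**Figure D1:**
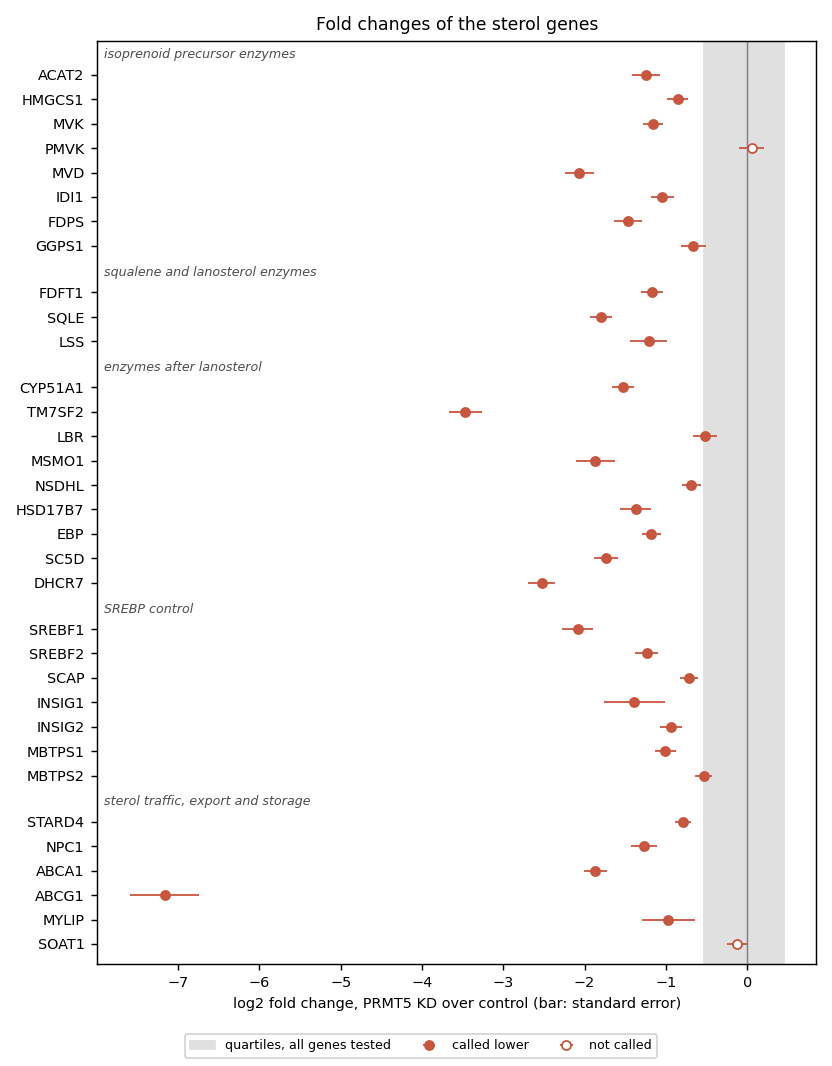
Log2 fold change of each of the 33 sterol genes, libraries labelled PRMT5 KD over control, with bars for the standard error and genes ordered by role. The grey band spans the quartiles of all 11906 tested genes, filled points are called lower and open points are not called: PMVK and SOAT1 lie inside the band at 0.06 and -0.13 and change sign under some settings, and ABCG1 at -7.17 rests on 5 and 1 counts.

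The isoprenoid precursor enzymes turn acetyl-CoA units into farnesyl and geranylgeranyl pyrophosphate. Of 8, 7 were called lower, beside 24.3% of all tested genes, and the median difference was -1.10 on the log2 scale. The members were chosen for being lower, which fixes such counts in large part, here and in the roles below. The 8 together went from 568 and 660 CPM in control to 295 and 246 CPM, 44.03% of the control level. The sum over all tested genes was itself 88.4% of its control level, which also stands beside the sums of the roles below. MVD, which decarboxylates mevalonate pyrophosphate, showed the largest difference of the 8. It stood at 91.6 and 112 CPM in control and at 27.8 and 21.0 CPM with the knockdown label, a log2 fold change of -2.06 ± 0.18 (SE). FDPS, the farnesyl pyrophosphate synthase, had 154 and 177 CPM against 69.1 and 51.1 CPM (-1.46 ± 0.17). In both genes the libraries labelled PRMT5 KD lay below the control libraries, as they did for 40.6% of all tested genes. FDPSP2, a pseudogene copy of FDPS, was listed with 1 to 3 counts.

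The enzymes at the head of the pathway had differences closer to the median. ACAT2, the cytosolic thiolase that joins acetyl-CoA units, had 13.8 and 16.2 CPM against 5.86 and 6.79 CPM (log2 fold change -1.25 ± 0.17). HMGCS1, which makes HMG-CoA, had 120 and 142 CPM against 76.4 and 68.8 CPM (-0.85 ± 0.13). MVK, the mevalonate kinase, had 38.3 and 40.6 CPM against 18.1 and 17.3 CPM (-1.16 ± 0.12). None of these genes overlapped between the groups. Over all tested genes, both libraries labelled PRMT5 KD lay below both control libraries for 40.6%.

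PMVK, the kinase that acts between MVK and MVD, was the exception in this segment. It had 10.7 and 11.6 CPM in control against 12.4 and 10.8 CPM, so that the groups overlapped, and its log2 fold change was 0.06 ± 0.15, which turned to -0.37 when exon length and GC content were corrected for. Its neighbours in the pathway on either side were 2.23-fold and 4.18-fold lower in mean CPM. The segment closes with IDI1, the isopentenyl pyrophosphate isomerase (108 and 125 CPM against 62.2 and 50.9 CPM), and GGPS1, which leads to geranylgeranyl groups for proteins rather than to sterols. GGPS1 had the smallest difference of the called enzymes of this segment, with 30.7 and 36.3 CPM against 23.1 and 19.2 CPM (-0.66 ± 0.15).

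FDFT1, SQLE and LSS commit the pathway to sterols by making squalene, oxidising it and closing it to lanosterol. All 3 were called lower, beside 24.3% of all tested genes, at a median log2 fold change of -1.21. Their sum was 40.1% of the control level. SQLE, the squalene epoxidase and a rate-limiting enzyme, had 248 and 285 CPM in control against 82.1 and 70.8 CPM (log2 fold change -1.80 ± 0.14), a 3.49-fold lower mean. FDFT1, the squalene synthase, had 165 and 172 CPM against 82.7 and 66.9 CPM (-1.17 ± 0.14). LSS, the cyclase, was the most abundant of the 3 at 743 and 808 CPM against 408 and 262 CPM (-1.21 ± 0.23). Its libraries labelled PRMT5 KD lay 1.56-fold apart.

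The 9 enzymes after lanosterol strip methyl groups and shift or reduce double bonds to give cholesterol. All 9 were called lower, beside 24.3% of all tested genes, at a median log2 fold change of -1.53. Their sum was 1820 and 2010 CPM in control against 634 and 543 CPM. That is 30.7% of the control level, the lowest share of the 5 role groups. TM7SF2, a sterol reductase on chromosome 11 (65111845 to 65116384, GRCh38), had the largest difference of all 20 enzymes. It had 921 and 1571 counts in control and 118 counts in each of the libraries labelled PRMT5 KD, or 23.2 and 31.4 CPM against 2.48 and 2.47 CPM (-3.47 ± 0.20), an 11.0-fold lower mean.

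DHCR7, the reductase that completes cholesterol from its dehydro precursor, lies on chromosome 11 as well (71428193 to 71452868) and was the next lowest enzyme. Its levels were 543 and 616 CPM in control against 113 and 88.3 CPM (log2 fold change -2.53 ± 0.17), a 5.77-fold lower mean. MSMO1, a methyl sterol oxidase, had 519 and 594 CPM against 187 and 119 CPM (-1.87 ± 0.24), and its libraries labelled PRMT5 KD lay 1.57-fold apart. SC5D, a sterol desaturase, had 159 and 169 CPM against 55.5 and 42.7 CPM (-1.74 ± 0.15). All 3 of these genes had control libraries close together and clear of the other group. Both libraries labelled PRMT5 KD lay below both control libraries for 40.6% of all tested genes.

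CYP51A1, the lanosterol demethylase, had 252 and 260 CPM against 97.7 and 80.0 CPM (log2 fold change -1.53 ± 0.14). EBP, a sterol isomerase, had 103 and 118 CPM against 48.9 CPM in both other libraries (-1.18 ± 0.12). NSDHL and HSD17B7 act with MSMO1 in removing methyl groups. NSDHL had 37.6 and 37.9 CPM against 24.3 and 22.6 CPM (-0.69 ± 0.12). HSD17B7 had 14.7 and 16.9 CPM against 5.29 and 6.94 CPM (-1.37 ± 0.19). The estimated counts of HSD17B7 are not whole numbers (581.1 in control replicate 1), which is how an estimator writes reads shared between similar sequences. Its pseudogene copy HSD17B7P2 was listed with 7.63 to 12.9 counts, so a small part of the HSD17B7 level is uncertain.

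LBR, the lamin B receptor, is a nuclear envelope protein that also carries sterol reductase activity for the step TM7SF2 catalyses. It had the smallest difference of the 9, with 169 and 166 CPM against 101 and 133 CPM (log2 fold change -0.52 ± 0.15). That is just past the limit of 0.5 for a call, and it was -0.30 and not called without PRMT5 KD replicate 1. MBTPS2 at -0.54 lies next inside this limit, and SOAT1 at -0.13 is the nearest member outside it.

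The 7 genes of the SREBP machinery were all called lower, beside 24.3% of all tested genes, at a median log2 fold change of -1.01. Their sum was 41.8% of the control level. SREBF1 had the largest difference, with 433 and 490 CPM in control against 91.2 and 126 CPM (log2 fold change -2.09 ± 0.19), a 4.25-fold lower mean. SREBF2, the factor more closely tied to cholesterol synthesis, had 466 and 505 CPM against 224 and 189 CPM (-1.23 ± 0.14). Both factor genes were lower, like most members. SREBF2 is also the member whose promoter, printed above, has a match of letters to the sterol element core. SREBP activity and binding were not measured, and a link between these observations was not tested.

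INSIG1 and INSIG2 retain the SCAP complex in the endoplasmic reticulum. INSIG1, itself an SREBP target, had 510 and 667 CPM in control against 303 and 147 CPM (log2 fold change -1.39 ± 0.37), and its libraries labelled PRMT5 KD lay 2.06-fold apart, the widest gap of the members with more than 10 counts per library. INSIG2 had 32.2 and 32.97 CPM against 15.7 and 18.2 CPM (-0.94 ± 0.13). SCAP, the escort that carries SREBP to the Golgi, had 222 and 231 CPM against 135 and 140 CPM (-0.72 ± 0.11). These last genes were tight within each group.

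The proteases that release SREBP also cut other membrane proteins. MBTPS1 had 351 and 394 CPM against 195 and 175 CPM (log2 fold change -1.01 ± 0.13). MBTPS2 had 90.8 and 92.4 CPM against 61.7 and 64.7 CPM (-0.54 ± 0.10). The difference of MBTPS2 was the smallest of the 7 SREBP genes, though its libraries within a group were close together.

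Of the 6 genes of traffic, export and storage, 5 were called lower, beside 24.3% of all tested genes. The exporters driven by LXR had the largest differences. ABCA1, which loads cholesterol onto apolipoproteins, had 1046 and 1123 CPM in control against 291 and 304 CPM (log2 fold change -1.87 ± 0.14). ABCG1, the partner exporter, had 361 and 487 counts in the control libraries and 5 and 1 counts in the libraries labelled PRMT5 KD. Pooled by group, that is 848 against 6 counts, a ratio of 150 after scaling for library size. The fitted value of -7.17 on the log2 scale moves with the prior count. ABCG1 passed the filter on low values only through the control libraries, at 1.49 and 1.59 CPM per kb against 0.0172 and 0.00341. As for all members, the size of this difference is a description of the choice.

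MYLIP, the LXR target that marks lipoprotein receptors for degradation, was low and variable, with 12.4 and 11.0 CPM against 4.01 and 7.92 CPM (log2 fold change -0.97 ± 0.33). Leaving out 1 library moved this value by over 1.5 times in either direction. It was -0.53 when PRMT5 KD replicate 1 was dropped and -1.54 when replicate 2 of that group was dropped. With all 4 libraries the call of MYLIP only just met the limit (edgeR quasi-likelihood test, adjusted p = 0.0493). That call was lost under RLE scaling, with total counts alone and with no filter, among other settings. NPC1, which moves cholesterol out of lysosomes, had 1193 and 1174 CPM against 547 and 438 CPM (-1.26 ± 0.16). STARD4, a soluble sterol carrier, had 160 and 157 CPM against 90.7 and 92.9 CPM (-0.79 ± 0.10). NPC1 was the most abundant member in CPM.

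SOAT1, which esterifies cholesterol for storage, was the member of this group that was not called. It had 353 and 352 CPM in control against 304 and 341 CPM, a log2 fold change of -0.13 ± 0.13, which became 0.05 under scaling by total counts alone. Both of its libraries labelled PRMT5 KD lay below both control libraries, but the gap to the nearer was small. The members that were not called thus include an enzyme in the middle of the mevalonate segment, PMVK, and the storage enzyme.

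Per length, the members spanned a wide range in the control libraries. MSMO1 was highest with a mean level of 195 CPM per kb of exon, followed by INSIG1 (161), NPC1 (122), LSS (107), ABCA1 (95.6) and DHCR7 (84.3). The libraries of MSMO1 and INSIG1 overlapped, and NPC1, LSS, ABCA1 and DHCR7 did not overlap with their neighbours in this order. EBP (62.5), SQLE (61.9), CYP51A1 (61.5) and SREBF2 (60.3) overlapped and do not differ beyond their spread, and SREBF1 at 56.1 overlapped EBP, SQLE and SREBF2. The lowest members were MYLIP (3.81), HSD17B7 (3.30) and ABCG1 (1.54). With the longest annotated transcript as the length, 9 of the 10 highest members stayed among the 10 highest.

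In the libraries labelled PRMT5 KD the order of levels per kb changed in places. INSIG1 (61.6 CPM per kb), MSMO1 (53.5), NPC1 (50.7) and LSS (46.2) had the 4 highest means, but their libraries overlapped one another and those of SOAT1, which was the highest member in PRMT5 KD replicate 2 at 48.7. By the mean, SOAT1 at 46.05 CPM per kb moved from rank 12 to rank 5, and SCAP from rank 15 to rank 9. DHCR7 at 14.6 moved from rank 6 to rank 17, SREBF1 at 13.2 from rank 11 to rank 18 and TM7SF2 at 0.725 from rank 28 to rank 32.

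**Figure D2:**
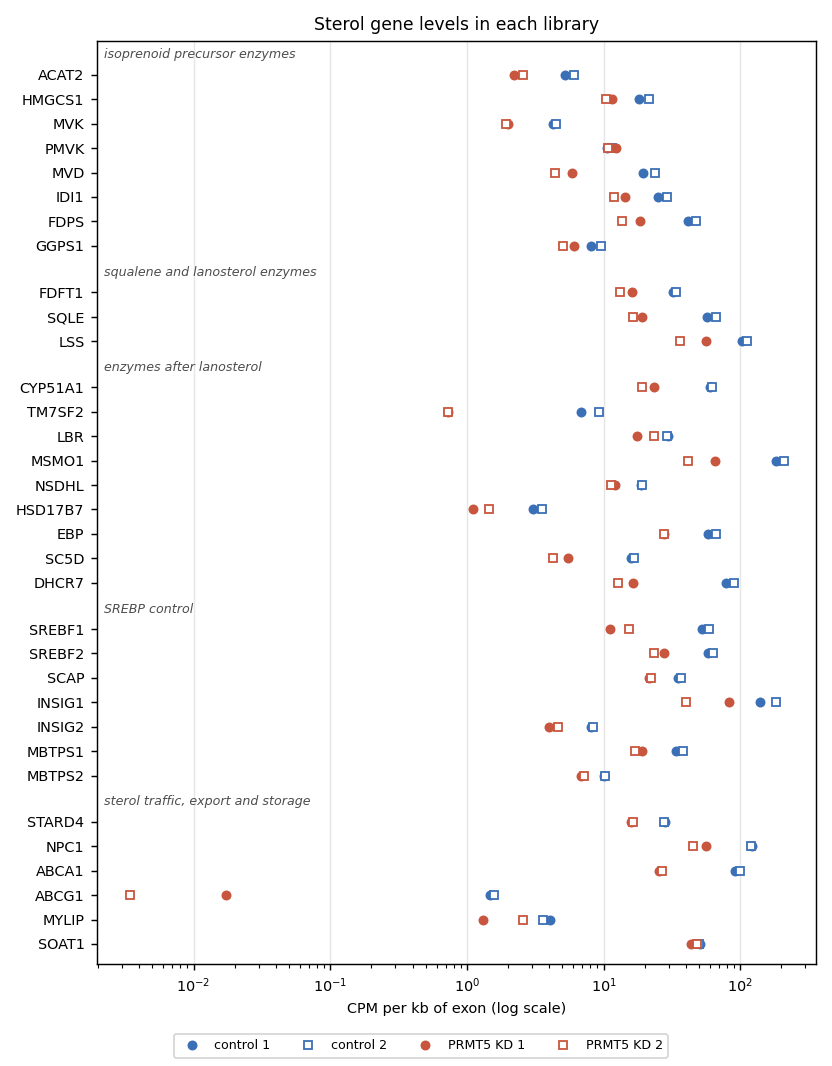
Level of each of the 33 sterol genes in each of the 4 libraries, in CPM per kb of exon on a log axis, with genes ordered by role. Blue marks are control and red marks are the libraries labelled PRMT5 KD, filled circles are replicate 1 and open squares replicate 2. The colours are apart for most genes, which were chosen for being lower, and overlap for PMVK. The enzymes mostly have the red circle to the right of the red square.

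The order of the libraries within a group does not involve the contrast on which the members were selected. Among the 20 enzymes, PRMT5 KD replicate 1 was above PRMT5 KD replicate 2 for 16, with a median ratio of 1.18, whereas over all tested genes it was above for 5941 of 11906 with a median ratio of 1.00. Among the SREBP genes it was above for 3 of 7 and among the traffic, export and storage genes for 2 of 6. The widest enzyme gaps were in MSMO1 (1.57), LSS (1.56) and FDPS (1.35), and the opposite order was seen in SREBF1 (0.722), LBR (0.760) and MYLIP (0.506). In the control libraries, replicate 1 was below replicate 2 for 19 of the 20 enzymes, against 6309 of all 11906 genes. The members' median SD on the log2 scale was 0.085 in control and 0.169 in the libraries labelled PRMT5 KD, beside 0.092 and 0.121 over all tested genes. With 1 pair of libraries in each group these are descriptions of single libraries.

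Ratios between related genes, taken per kb within each library, differed in how steady they were. TM7SF2 over LBR, the pair of reductases for the same step, was 0.231 and 0.316 in control and 0.0412 and 0.0311 in the libraries labelled PRMT5 KD. LBR over DHCR7, which belong to the same reductase family, was 0.374 and 0.325 against 1.08 and 1.81. Within this family LBR thus made up more of the summed level in the libraries labelled PRMT5 KD, and TM7SF2 over DHCR7 was 0.0864 and 0.103 against 0.0444 and 0.0564.

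SREBF1 over SREBF2 was 0.909 and 0.948 in control and 0.399 and 0.652 in the libraries labelled PRMT5 KD, with no overlap. INSIG1 over INSIG2 was 17.2 and 21.9 against 20.8 and 8.71. The INSIG ratio overlapped between the groups, since PRMT5 KD replicate 1 lay between the control libraries. With 2 against 2 libraries an exact permutation test cannot go below p = 0.333, so no ratio was tested.

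**Figure D3:**
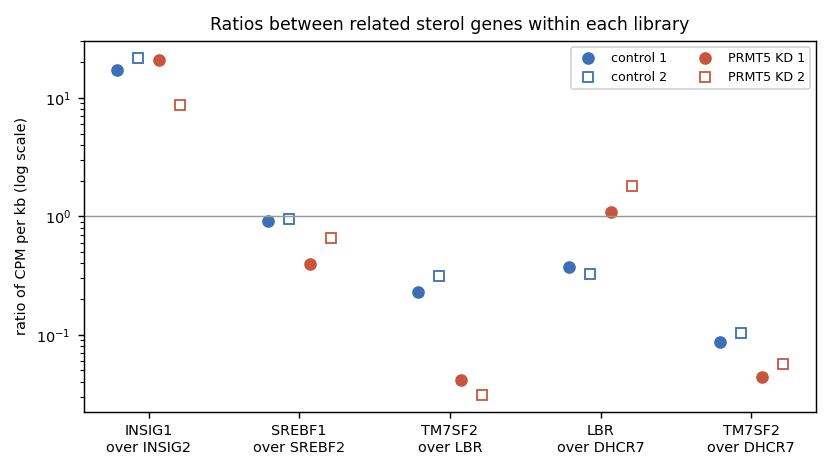
Ratio of CPM per kb between 2 related genes in each library, on a log axis, for the 5 pairs compared. Each point is 1 library: the groups are apart in TM7SF2 over LBR, LBR over DHCR7, TM7SF2 over DHCR7 and SREBF1 over SREBF2, and overlap in INSIG1 over INSIG2, where the 4 values were 17.2, 21.9, 20.8 and 8.71.

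Genes around the pathway were taken from a list written from general knowledge, though with earlier results of these data known. Of the 40 reported here, 34 passed the filter. Of these, 13 were called, which is 38.2% against 45.5% of all tested genes. The calls were 11 lower (32.4%, against 24.3%) and 2 higher (5.88%, against 21.2%). They were 10 lower and 5 higher with total counts alone. In that setting 2200 of the 11906 tested genes were called lower (18.5%) and 3507 higher. After correction for length and GC content the calls were 14 lower and 6 higher. There, 2495 of the 11906 tested genes were called lower (21.0%) and 2860 higher. With the scaling used here, 8 were called lower with a log2 fold change of -1 or less (23.5%, against 12.8% of all tested genes). The median log2 fold change was -0.29, and both libraries labelled PRMT5 KD were below both control libraries for 19 of 34, or 55.9% against 40.6%. The shares are closer to those of all genes than the shares of the 33 members, which were picked for being lower. IDI2, CYP27A1, GRAMD1C, VLDLR, SOAT2 and FAXDC2 did not pass the filter.

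By role, the genes of acetyl-CoA supply were lower and the isoprenoid branches that do not lead to sterols were mostly not called. ACSS2, which makes acetyl-CoA from acetate, had 198 and 249 CPM in control against 24.0 and 22.3 CPM, and fell by 3.27 ± 0.15 (SE) on the log2 scale (edgeR quasi-likelihood test, Benjamini-Hochberg adjusted p = 0.000197). ACLY, which makes it from citrate, fell by 1.29 ± 0.15 (adjusted p = 0.000966, edgeR). Of 10 genes of dolichol, ubiquinone and protein prenylation, 0 were called lower and 2 higher, PDSS1 (1.05 ± 0.25) and FNTB (1.01 ± 0.20). The higher share is near the 21.2% of all tested genes called higher, and 24.3% were called lower. The 0 depends on the limit of 0.5: PDSS2 (-0.48), ZMPSTE24 (-0.40) and NUS1 (-0.38) had an edgeR adjusted p under 0.05. Both libraries labelled PRMT5 KD lay below both control libraries for 4 of the 10, against 40.6% of all tested genes. The log2 fold change was above 0 for 5 of the 10. Without control replicate 2, neither of the 2 higher calls of the whole list was made. There was 1 without control replicate 1, and there were 4 without PRMT5 KD replicate 1 and 3 without PRMT5 KD replicate 2.

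Of the 4 genes around LXR and oxysterols that were tested, 2 were called lower, beside 24.3% of all tested genes. NR1H3, which encodes LXR alpha, had 20.4 and 27.6 CPM against 4.05 and 5.68 CPM and fell by 2.30 ± 0.24 on the log2 scale (edgeR adjusted p = 0.00075), and LPCAT3, an LXR target, fell by 1.48 ± 0.12 (edgeR adjusted p = 0.000374). NR1H2, which encodes LXR beta, had 72.4 and 73.8 CPM against 99.3 and 84.0 CPM. Its log2 fold change was 0.33 and it was not called. NR1H3 and the selected members ABCA1 and ABCG1 were lower in the same libraries, whereas NR1H2, the more abundant receptor gene, was not. A link between them was not tested.

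Uptake and traffic genes had 4 of 10 called lower and none higher, among them LIPA, the lysosomal acid lipase, which fell by 1.55 ± 0.17 (edgeR adjusted p = 0.000798). Of 6 genes of SREBP and reductase turnover, 2 were lower and 0 higher. Over all tested genes 24.3% were called lower and 21.2% higher, and these small groups were not tested against those shares. ERLIN2, which helps to degrade reductase and INSIG proteins at the endoplasmic reticulum, fell by 1.52 ± 0.13 (edgeR adjusted p = 0.000444). Of the sterol synthesis partners, ERG28 was called lower and EBPL was not. ACSS2, ACLY, NR1H3, LPCAT3, LIPA and ERLIN2 were named as the called genes of the list with the largest change. Their adjusted p values were thus part of the choice and are no separate test. PDSS1, FNTB, PDSS2, ZMPSTE24, NUS1, NR1H2 and ERG28 fall outside the rule for named genes and were picked with their values in view.

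**Figure D4:**
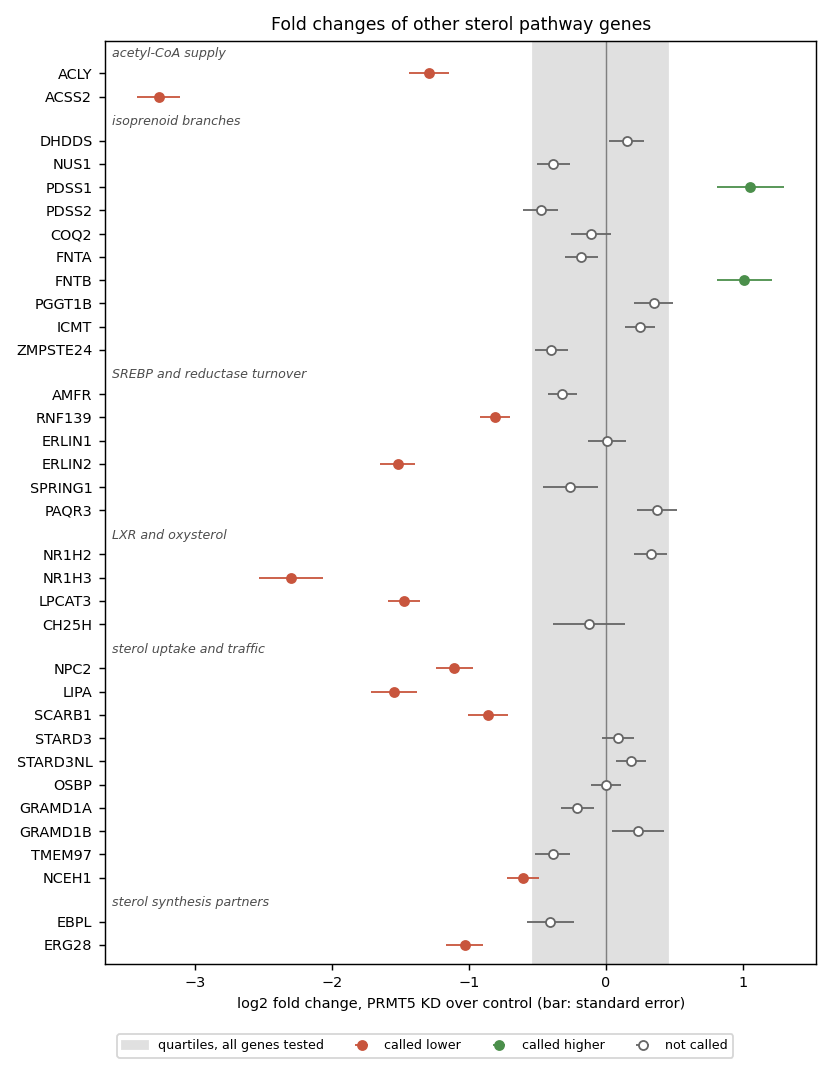
Log2 fold change, libraries labelled PRMT5 KD over control, of the 34 tested genes around the pathway, ordered by role, with bars for the standard error. The grey band spans the quartiles of all tested genes, red points are called lower (11), green points called higher (2) and open points not called: ACSS2 and NR1H3 lie farthest to the left at -3.27 and -2.30.

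Some member calls rested on single libraries or settings. Of the 31 calls, 25 were made without control replicate 2, where GGPS1, LSS, LBR, INSIG1, MBTPS2 and MYLIP were lost. Without control replicate 1 there were 28 (LBR, INSIG1 and MYLIP lost), without PRMT5 KD replicate 1 there were 29 (LBR and MBTPS2 lost), and without PRMT5 KD replicate 2 all 31 were made. At the same limit of 0.5, SCAP lost its call when exon length and GC content were corrected for (log2 fold change -0.47), and a limit of 1 left 22 calls. LBR ranged from -0.72 to -0.30 over the settings, MBTPS2 from -0.56 to -0.36 and INSIG1 from -1.96 to -0.95. TM7SF2 (-3.66 to -3.23), DHCR7 (-2.68 to -2.30) and ABCA1 (-1.92 to -1.58) were called under every setting tried at the limit of 0.5.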

How the data were processed

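The authors sequenced directional total RNA libraries of UMSCC74B cells and deposited 1 table of estimated counts per library. The submitters' processing notes name FastQC, Trim Galore, STAR, Salmon and DESeq2 with GRCh38, without versions, whereas the methods name STAR and featureCounts. Which of these made the tables, and the strand setting, are not given in the sources used here. Each table has 29744 rows, 28 of them gene names turned into dates (0.150 to 0.161% of counts), which were left out.

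The deposited estimated counts were rounded. Names were matched to GENCODE through current symbols, RefSeq gene numbers and synonyms (18961 protein-coding). The 11906 protein-coding genes tested had 0.5 RPKM or more in every library of 1 group or the other. The groups were compared with edgeR 4.0.16 (R 4.3.3; TMM scaling, robust quasi-likelihood, Benjamini-Hochberg), and DESeq2 1.42.0 was an alternative. CPM are relative to the summed counts of the tested genes, and levels per kb divide them by union exon length. The fit was tested on simulated data. Named genes were the 33 members, PRMT5 and the 6 called genes around the pathway with the largest change. Of the genes around the pathway and of the leukocyte markers, 1 gene each is not reported here and is left out of the counts of its list. The members and lists were chosen with earlier results of these data known. No source says that a replicate number marks a shared culture or day, so libraries were not paired. Same-numbered libraries deviated with r = -0.10.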

Additional observations from a re-analysis of the deposited data

How the results depend on the processing

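The 33 members were refitted under 15 settings, 495 values in all: 459 kept direction and call, 31 lost the call and 5 changed sign. The number called was 31 with DESeq2, 30 with RLE scaling, 27 with total counts alone, 27 with no filter, 29 when length and GC content were corrected for, and 25 to 31 with 1 library left out. The replicate block gave 30, losing MYLIP, and the same block gave 13 calls in the genes around the pathway. The crossed pairing, a replicate block chosen after seeing the data, gave 31. The median log2 fold change of the members moved to -1.04 with total counts alone and was -1.27 to -1.11 with 1 library left out. PMVK turned to -0.371 after the length and GC correction and to -0.372 with the replicate block added; leaving out 1 library gave -0.00424 to 0.157 (-0.000936 without control replicate 1). SOAT1 turned to 0.0527 with total counts alone. PRMT5 was 0.572 to 0.782 with 1 library left out, and lost its call at 0.579 without control replicate 2. The genes around the pathway had 20 calls after the length and GC correction, against 13, and 11 to 16 with 1 library left out; neither of the 2 higher calls was made without control replicate 2. The cause was not tested. With 2 libraries a group, small differences and low genes such as ABCG1 and MYLIP are poorly measured.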
